A study of Mus musculus with 3 samples.

Results

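Spliced transcript models without any gene name were picked out of the transcript table made for wild-type C57BL/6J mouse testis. Their code in the table began with XX_C, their name was an assembler identifier of the form CUFF, and they had at least 2 exons. Models that shared 1 bp or more of exon on the same strand with a piRNA-named model were left out. The rule kept 3369 of the 50081 models, or 6.73%. Before that last step there were 3441 spliced models among 12086 unannotated ones, and 72 were left out. Those 72 overlapped piRNA-named exons by at least 484 bp and by a median of 7663.5 bp. At the other boundary of the rule, 1605 members had exactly 2 exons, and 8538 unannotated models of 1 exon, outside piRNA-named exons, fell just below it. The 3369 members formed 2640 loci, a locus being all members whose exons overlapped on 1 strand.

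The libraries deposited with the study came from total RNA of testes: CAGE at 10.5 days post partum, CAGE in the adult, and PAS-Seq in the adult, with 1 library each. All were wild-type C57BL/6J, and no source used here says whether animals were pooled. CAGE reads where capped transcripts begin, and PAS-Seq where their poly(A) tails are added. Both read transcript ends, and no source used here says which reads gave the exons between them. The table gives positions and exons in the mm9 build but no value per library, so levels, stages and tissue purity could not be read from it.

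The testis transcribes an unusually broad part of the genome, above all in meiotic and postmeiotic germ cells, and many of its RNAs are long noncoding RNAs. Splicing separates such RNAs from single-exon fragments, which can also arise from pre-mRNA, from readthrough past a gene's end or from genomic DNA. A spliced model outside any known gene may be a noncoding RNA, an unannotated protein-coding gene, or an extension of a known gene. In mammals, many promoters start RNAs in both directions, so that a noncoding RNA and a coding gene can share 1 CpG-rich promoter and face away from each other.

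Coding promoters that faced a member are shown first, since a member start lay close to the coding start. Whether both transcripts use the same DNA was not tested. In each, the RefSeq start of the coding gene has 250 bases before it and 50 after it. Capitals mark each match to the MYB motif GGCNGTT on either strand, where N is any base. MYB proteins, among them the meiotic activator A-MYB that the study concerns, bind such sites. The first 3 were taken among coding genes with a single RefSeq promoter entry, listed genes first and then by the exon number of the facing member. Tex12, which encodes a central element protein of the synaptonemal complex, had a coding start 170 bp from a 7-exon member. Kctd21, an adaptor gene of a ubiquitin ligase, lay 135 bp from an 11-exon member that takes 9 of its 10 introns from the known gene Usp35, and Anks3, an ankyrin repeat gene, lay 175 bp from a 9-exon member free of gene exons. The member that faces Tex12 shares introns with the known gene Il18. The sequences are RefSeq's, in GRCm38.p6, and run 5′ to 3′ along the coding gene.
Tex12 (chr9:50561219-50561518, minus strand): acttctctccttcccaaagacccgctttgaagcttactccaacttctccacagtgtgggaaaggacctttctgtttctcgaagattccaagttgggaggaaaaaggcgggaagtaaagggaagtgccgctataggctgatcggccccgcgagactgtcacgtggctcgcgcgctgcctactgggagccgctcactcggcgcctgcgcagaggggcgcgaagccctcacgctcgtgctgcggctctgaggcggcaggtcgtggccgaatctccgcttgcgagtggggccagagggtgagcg
Kctd21 (chr7:97332073-97332372, plus strand): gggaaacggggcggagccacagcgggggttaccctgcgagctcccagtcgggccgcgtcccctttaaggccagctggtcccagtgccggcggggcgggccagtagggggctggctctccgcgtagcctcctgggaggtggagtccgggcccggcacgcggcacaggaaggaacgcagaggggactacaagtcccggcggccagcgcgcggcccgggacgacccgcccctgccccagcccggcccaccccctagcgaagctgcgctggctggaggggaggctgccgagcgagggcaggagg
Anks3 (chr16:4964188-4964487, minus strand): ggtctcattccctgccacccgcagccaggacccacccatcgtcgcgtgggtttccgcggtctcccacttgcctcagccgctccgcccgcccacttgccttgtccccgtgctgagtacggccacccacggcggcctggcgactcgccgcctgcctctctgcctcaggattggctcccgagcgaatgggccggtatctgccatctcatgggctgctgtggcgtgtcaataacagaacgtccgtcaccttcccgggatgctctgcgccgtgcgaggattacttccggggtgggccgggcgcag

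None of these 3 windows holds the motif. The next 4 were chosen after their matches were seen, as the promoters with a match that faced the members of most exons free of annotated exons. Cabs1 encodes a calcium-binding protein of spermatids, Ncaph a condensin subunit, Tmed8 a TMED family protein and Sec61a2 a translocon subunit. Their starts lay 141, 10, 153 and 94 bp from the starts of members with 4, 3, 3 and 3 exons, in that order.
Cabs1 (chr5:87979201-87979500, plus strand): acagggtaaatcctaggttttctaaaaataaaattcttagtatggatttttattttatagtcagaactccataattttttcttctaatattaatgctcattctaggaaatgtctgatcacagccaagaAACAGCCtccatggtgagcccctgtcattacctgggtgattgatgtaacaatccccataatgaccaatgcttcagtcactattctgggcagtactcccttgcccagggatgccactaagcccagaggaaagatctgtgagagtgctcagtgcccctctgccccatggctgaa
Ncaph (chr2:127133905-127134204, minus strand): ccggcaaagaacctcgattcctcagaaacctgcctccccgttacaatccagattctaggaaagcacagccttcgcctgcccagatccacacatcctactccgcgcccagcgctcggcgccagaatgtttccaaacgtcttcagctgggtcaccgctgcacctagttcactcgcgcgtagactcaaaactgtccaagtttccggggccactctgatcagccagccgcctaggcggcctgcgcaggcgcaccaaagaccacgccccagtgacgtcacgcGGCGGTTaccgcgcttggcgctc
Tmed8 (chr12:87200180-87200479, minus strand): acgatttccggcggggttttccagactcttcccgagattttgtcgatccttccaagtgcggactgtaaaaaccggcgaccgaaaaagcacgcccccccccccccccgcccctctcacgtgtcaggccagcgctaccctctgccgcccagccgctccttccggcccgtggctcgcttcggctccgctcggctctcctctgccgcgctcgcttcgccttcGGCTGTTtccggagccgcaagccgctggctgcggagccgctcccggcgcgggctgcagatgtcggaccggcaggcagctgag
Sec61a2 (chr2:5895383-5895682, minus strand): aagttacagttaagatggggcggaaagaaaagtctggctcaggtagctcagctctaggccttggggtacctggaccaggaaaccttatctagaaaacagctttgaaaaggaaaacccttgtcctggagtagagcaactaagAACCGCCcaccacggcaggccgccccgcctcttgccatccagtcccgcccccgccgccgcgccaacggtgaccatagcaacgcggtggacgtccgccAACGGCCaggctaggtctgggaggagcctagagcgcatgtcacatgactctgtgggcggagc

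Sec61a2 has 2 matches and the other 3 have 1 each. The table had 88 coding genes with a RefSeq or assembled start that faced such a member within 250 bp, and 56 of them had a single RefSeq promoter entry. Of these 56, 17 had a match, or 30.4% (exact 95% interval 18.8 to 44.1%). The share was 12.3% (11.9 to 12.8%) over 21263 coding promoters and 12.1% over all 32851 promoters. Around coding genes that faced a single-exon unannotated locus it was 17.7% (12.6 to 23.7%, 35 of 198), and that interval overlaps the one for members. When the facing start had to be a RefSeq model's own, 15 of 50 promoters matched (17.9 to 44.6%). Besides those shown, genes with a match were 4930523C07Rik, Atp6v0d1, Dek, Derl3, Kcnj2, Pheta1, Sap30l, Sar1a, Sptssa, Tmem25 and Txn1. With those shown they number 15, so not all of the 17 are named.

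The MYB motif was 1 of 7 searched, both strands counted and overlaps between motifs allowed. The E-box CACGTG was in 21.4% of the 56 promoters (11.6 to 34.4%) against 7.84% of coding promoters, and in 12.1% of those facing single-exon loci. The GC box GGGCGG was in 60.7% (46.8 to 73.5%) against 46.2%, and in 71.7% of those facing single-exon loci. The CRE core TGACG (28.6% against 23.6%), the CCAAT box CCAAT (39.3% against 38.2%), the TATA box TATAAA (8.93% against 12.6%) and the X-box core GTTGCC (8.93% against 12.6%) had intervals that held the share over all coding promoters. The 56 promoters also had a median GC content of 61.2%, against 56.3% over coding promoters, and a median of 21.5 CpG against 13. Promoters that faced single-exon loci were higher still, with medians of 64.5% GC and 27 CpG. The part of base composition in these shares was not tested. These are descriptions of letters in a window, not of binding.

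The label was then checked against the table. Of the 3369 members, 515 shared exon bases on the same strand with models that carry a gene symbol, over 366 symbols (1.58% of all gene symbols) and by a median of 1925 bp. For these members the name unannotated goes against the table. They were close to the gene models in structure: 470 of 515 (91.3%, 88.5 to 93.6%) used at least 1 intron of a gene model with identical ends, and 128 used no other introns. Gene models here include assembled models that carry a symbol, so a shared intron need not be in a RefSeq model. Per model, a median of 88.9% of the introns were also in a gene model (quartiles 66.7 and 98.8%). Many went beyond the ends: 229 started over 50 nt before all gene models they overlapped, 146 ended over 50 nt past them, and 208 did neither. Ends that fell short of the gene models were not counted. In 400 of them the overlapped gene had coding models.

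The members with the most exons were mostly of this kind. CUFF.14777.1 (chr2:76542041-76820604, minus strand) had 308 exons and 102299 spliced nt, and all its 307 introns are introns of Ttn, the giant sarcomere protein titin. CUFF.17655.2 (chr4:32759541-32861891, plus strand) had 92 exons, with 90 of 91 introns from Mdn1, a ribosome assembly ATPase. CUFF.1831.1 (chr10:12101843-12589157, minus strand) had 75 exons, with 73 of 74 introns from Utrn, the dystrophin relative utrophin. The longest spans followed known genes as well: CUFF.2777.1 covered 1099476 bp with all 25 introns from Anks1b, and CUFF.2777.3 of the same locus 815765 bp. Behind them came CUFF.1950.1 over Lama2, a laminin chain, at 635805 bp, CUFF.16464.2 over Nbea, which encodes neurobeachin, at 558591 bp, and CUFF.7639.2 over Kcnma1, a potassium channel gene, at 537052 bp.

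In all, 9 of these 515 members ran over exons of 2 genes each on 1 strand. They are named here after their values were seen. CUFF.23797.2 had 43 exons and drew 38 introns from Chd2, a chromatin remodeller, and 4 from the noncoding 1810026B05Rik. CUFF.23256.1 and CUFF.23256.3, of 17 exons each, held 6 introns of Tmem147 together with 9 and 10 introns of Gapdhs, the glycolytic enzyme of the sperm tail. CUFF.13302.1 joined 11 introns of Taf6l to 4 of Tmem179b, and CUFF.3178.1 joined 5 introns of Myl6 to 6 of Myl6b, both myosin light chain genes. CUFF.18755.2 and CUFF.18755.3 took 7 introns of Smpdl3b and 2 and 1 of Xkr8. CUFF.15321.2 and CUFF.15321.5 ran over exons of Fastkd5 and Ubox5. The first held 1 intron of Fastkd5 and 4 of Ubox5. CUFF.15321.5 held no intron of either, and all its 2980 nt lay in exons of 1 gene model, so it joins no genes.

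The other 2854 members, in 2277 loci, shared no same-strand exon base with a gene and are called gene-free below. They were short in exons. The median gene-free model had 2 exons (quartiles 2 and 3), against 8 (4 and 17) for the members that share gene exons. The spliced models that RefSeq lists had a median of 4 exons (3 and 6) where noncoding and 8 (5 and 14) where coding. Of the gene-free models 54.9% had exactly 2 exons (53.1 to 56.7%, 1567 of 2854), against 14.9% of spliced RefSeq noncoding and 6.57% of spliced RefSeq coding models. At the other end, 100 gene-free models in 62 loci had 10 exons or more, which is 3.50%, against 44.9% of members that share gene exons. Differences between kinds of model are described and were not tested, since models are not replicates and models of 1 locus share exons. All intervals are exact and cover counting error only.

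**Figure D1:**
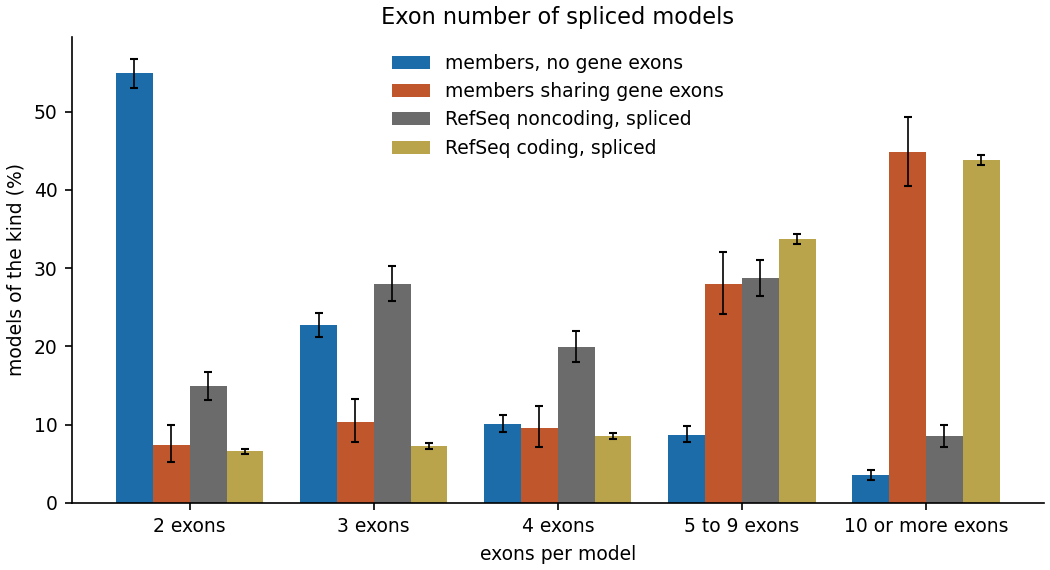
Share of spliced models (%, vertical axis) by number of exons per model (horizontal axis) for 4 kinds of model, with exact 95% intervals as error bars. Gene-free members are highest at 2 exons (54.9%), while members that share gene exons follow RefSeq coding models and are highest at 10 or more (44.9%).

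Gene-free models were also short in sequence. Their median spliced length was 1098.5 nt (quartiles 690 and 1973.5), below the 1519 nt of single-exon unannotated models, the 1509 nt of spliced RefSeq noncoding models and the 2639 nt of coding ones. They spanned a median of 5664 bp of the genome, against 11316 and 21596.5 bp for the RefSeq noncoding and coding models. The 5554 distinct introns had a median of 1801.5 bp (684.5 and 4912.5), longer than the 1557 and 1362 bp of RefSeq noncoding and coding models, and the longest was 49947 bp. Only 9 of those introns were under 70 bp. The first exon was 218 nt at the median, internal exons 134 nt and the last exon 506.5 nt. For RefSeq coding models the same medians were 182, 124 and 1014.5 nt. Very short end exons were rare, with 63 of the 3369 members (1.87%) carrying a first or last exon under 20 nt.

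Long models of 2 exons stood at the other extreme of exon use. CUFF.2886.1 (chr10:110307003-110334214, minus strand) had 23997 nt in 2 exons, of which the last held 23155 nt, and was the second longest spliced member. CUFF.28045.1 on chromosome X had 16599 nt in 2 exons, 14841 of them in the first. CUFF.21128.1 on chromosome 5 had exons of 9481 and 6508 nt. Each lay over 5 kb from any gene, and the last pair was picked after their values were seen.

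Some gene-free models had many exons. CUFF.1625.1 (chr1:183506508-183747658, plus strand) had 85 exons and 17389 nt over 241151 bp and overlapped 1866 bp at the end of Lbr, the lamin B receptor gene, on the other strand. CUFF.418.2 (chr1:53453913-53758921, minus strand) had 65 exons over 305009 bp, the longest gene-free span. CUFF.344.1 (chr1:46651785-46864318, plus strand) had 46 exons. CUFF.24179.1 (chr7:112798921-112870158, plus strand) had 44, CUFF.20581.1 (chr5:121670225-121776033, plus strand) had 42 and CUFF.1792.1 (chr10:10055511-10169901, minus strand) had 35. CUFF.14792.1 (chr2:82783681-82848979, plus strand) packed 21105 nt into 23 exons. Apart from CUFF.1625.1 and CUFF.14792.1, these were named after their values were seen. Over the 100 gene-free models with 10 or more exons, the medians were 15 exons, 3221 nt and a span of 53266 bp.

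**Figure D2:**
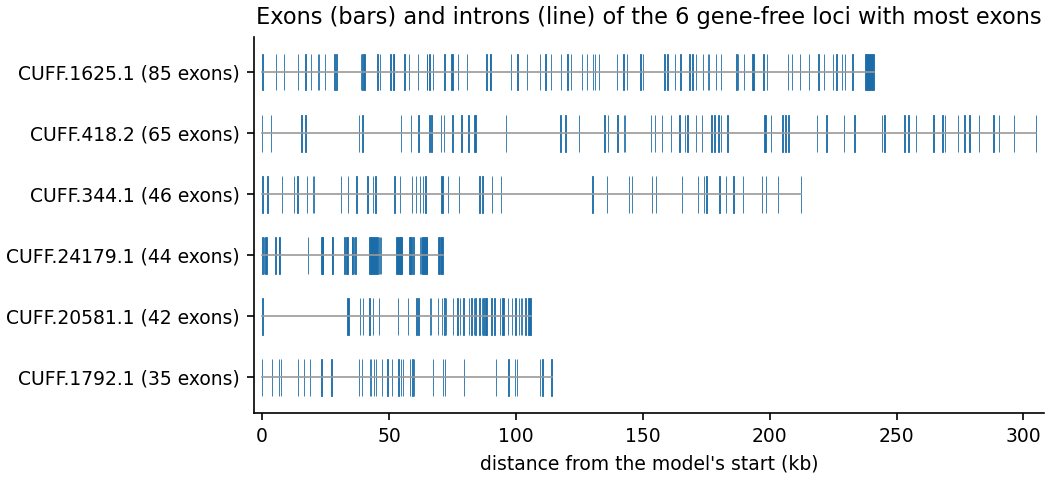
Exons (vertical bars) and introns (horizontal line) of the gene-free locus model with the most exons in each of 6 loci, by distance from the model's start in kb (horizontal axis). Exons run through the whole span, which reaches 241 kb for CUFF.1625.1 and 305 kb for CUFF.418.2.

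Internal exons whose length is a multiple of 3 nt can be skipped without shifting a reading frame, and they are common in coding genes. Among gene-free members 36.1% of 2923 distinct internal exons had such a length (34.3 to 37.8%), against 40.3% for RefSeq coding and 36.0% for RefSeq noncoding models. The share was 32.3% (29.5 to 35.1%) in gene-free models of 3 or 4 exons, 36.6% (33.3 to 40.02%) in those of 5 to 9, and 38.4% (35.6 to 41.2%) in those of 10 or more. The first and last of these intervals do not overlap. RefSeq coding models gave 37.3, 39.5 and 40.6% in the same classes, and noncoding models 35.1, 35.5 and 37.1%. Members that share gene exons had 42.2% in all, of which Ttn alone gave 252 of 306 internal exons. Among single models, 36 of 83 internal exons of CUFF.1625.1, 33 of 63 of CUFF.418.2 and 25 of 44 of CUFF.344.1 were multiples of 3. Most exon lengths of CUFF.344.1 recur in the same order in CUFF.418.2, so the count of CUFF.344.1 largely repeats part of the other. Both models also enter the share for 10 or more exons, whose interval treats their exons as separate. In CUFF.20581.1 the count was 13 of 40, and in CUFF.14792.1 it was 6 of 21.

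**Figure D3:**
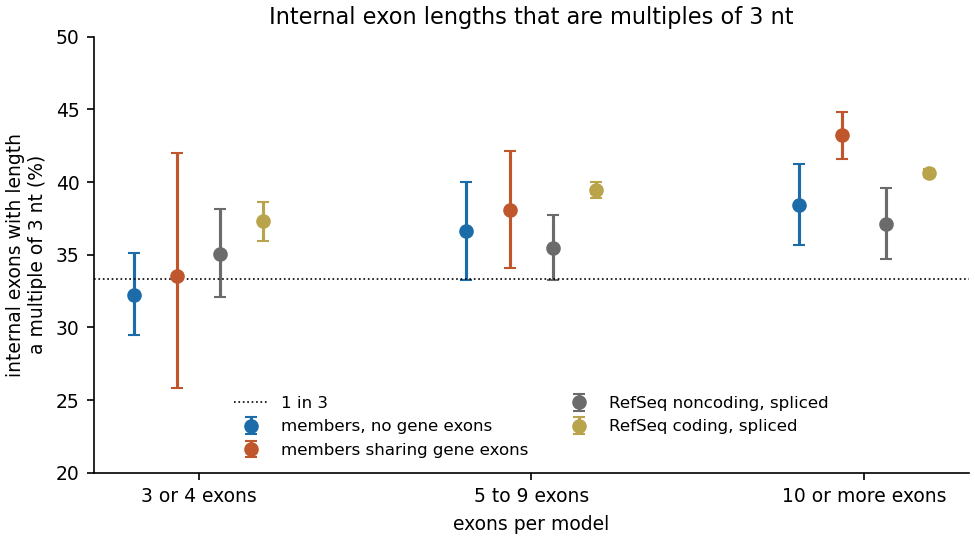
Share of distinct internal exons with a length that is a multiple of 3 nt (%, vertical axis, which starts at 20) in models of 3 or 4, 5 to 9 and 10 or more exons, with exact 95% intervals; the dotted line is 1 in 3. Gene-free members go from 32.3% in the smallest class to 38.4% in the largest.

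A newer gene list was set beside the models without moving any coordinate. For each gene-free locus the nearest coding genes to its left and right in the table were looked up in RefSeq's GRCm38.p6, and the interval was used where its length there was within 5% of that in mm9. This placed 1896 of 2277 loci, in 1371 intervals. Of the placed loci, 63.4% (61.2 to 65.6%) lay in an interval where GRCm38.p6 lists a long noncoding RNA gene on the same strand that the table lacks, and 10.5% (9.20 to 12.02%) in one with such a coding gene. For single-exon unannotated loci the shares were 44.7 and 4.96% of 6728 placed. Their intervals were shorter, at a median of 171 kb against 300.4 kb, and a longer interval can hold more genes. A shared interval does not show that a model is that gene.

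In the loci with 10 or more exons the balance was the other way round. Of 47 placed, 27 (57.4%, 42.2 to 71.7%) had a coding gene on the same strand that the table lacks, exactly 1 such gene in 24 of them, and 7 had a long noncoding RNA gene. No such coding gene was listed for the other 20. The 24 loci with exactly 1 are all given here, with no tally by function, since no list of functions was set for them. CUFF.1625.1 lay between Ccdc121 and Enah, where the gene is Dnah14. For CUFF.418.2, between Asnsd1 and Stk17b, it is Dnah7a, and for CUFF.344.1 and CUFF.316.1, between Dnahc7b and Slc39a10, it is Dnah7c. These 3 encode dynein heavy chains of the axoneme, the motor core of cilia and of the sperm tail. For CUFF.20581.1 and CUFF.20604.1, between Rpl6 and Trafd1, it is Hectd4, a ubiquitin ligase gene. It is Adgb, which encodes androglobin, for CUFF.1792.1, Cc2d2b for CUFF.13633.1 and Vwa3b for CUFF.223.2. For CUFF.14792.1, between Zfp804a and Zc3h15, it is Fsip2, a sperm fibrous sheath gene, and for CUFF.28610.1 it is Wnk3, a kinase gene. Ankrd31, a gene of meiotic recombination, lay in the interval of CUFF.7274.1, and Catspere1, of the sperm calcium channel complex, in that of CUFF.1646.2. Slc26a8, a sperm anion transporter gene, lay in that of CUFF.11340.1, and Gm29825 in that of CUFF.27638.2. For the loci below 19 exons the genes were Ace3, the complement gene C7, Cfap99, the chromatin remodeller Srcap, 4921528I07Rik, Gm6657, Gm14569, Exoc3l2 and A26c2.

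Single models need not be whole transcripts. CUFF.20581.1 ended at position 121776033 of chromosome 5, and CUFF.20604.1, with 28 exons, started at 121778033 on the same strand in the same interval. Of the 2277 gene-free loci, 566 (24.9%, 23.1 to 26.7%) had another unannotated model on the same strand within 5 kb. The share was 31.9% (30.9 to 32.9%) for single-exon loci. Exon bases were shared with a single-exon unannotated model on the same strand by 279 members.

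Most gene-free loci stood well away from genes. Of 2277, 1455 lay over 5 kb from any gene-symbol model on either strand, or 63.9% (61.9 to 65.9%), against 51.4% (50.4 to 52.5%) of 8485 single-exon loci. Among these 1455 loci the median distance to the nearest gene was 53.8 kb (20.5 and 145 kb), and 33.9% were over 100 kb away. Among the 4359 single-exon loci over 5 kb from genes, unplaced sequences left out, these were 41.9 kb and 29.0%. The most remote, CUFF.25279.1 on chromosome 8, had 3 exons and 533 nt and lay 2331 kb from a gene. Positions in or just past a gene on the same strand were less common than among single-exon loci, though the difference was not tested. Within introns of a gene on the same strand lay 3.29% of gene-free loci against 10.01%, and within 5 kb downstream of a same-strand gene 2.33% against 7.51%. Opposite-strand introns held 239 gene-free loci, or 10.5%, against 7.92%.

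**Figure D4:**
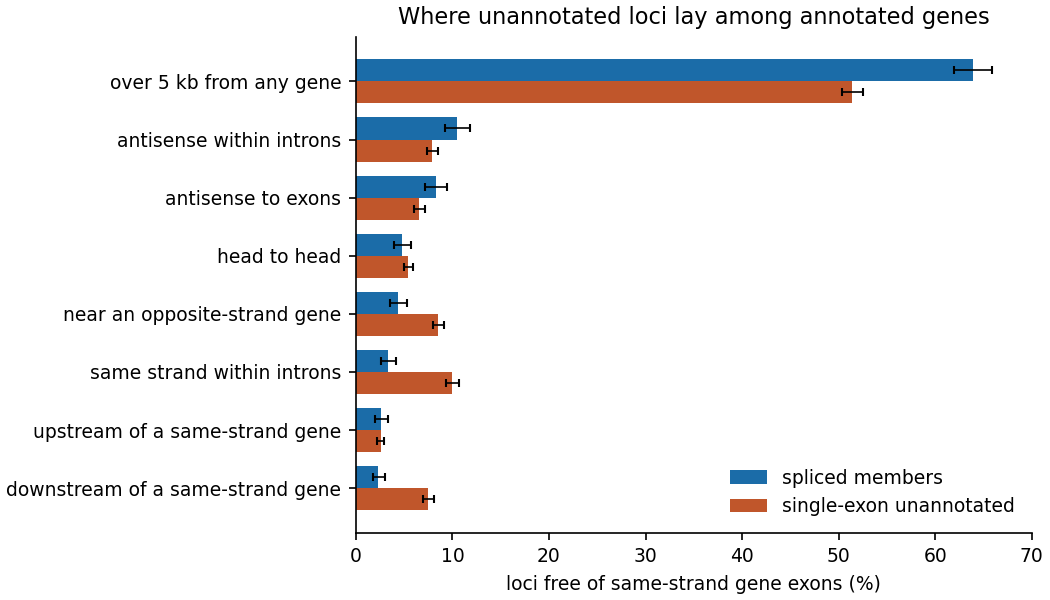
Share of loci free of same-strand gene exons (%, horizontal axis) in each position relative to genes (vertical axis), for 2277 spliced member loci and 8485 single-exon unannotated loci, with exact 95% intervals. Spliced loci are higher over 5 kb from genes (63.9 against 51.4%) and lower in same-strand introns (3.29 against 10.01%) and downstream of genes (2.33 against 7.51%).

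The sharing of gene exons went with exon number. Among loci whose largest model had 2 exons, 1.76% shared exons with a gene on the same strand, against 9.60% at 3 or 4 exons, 37.5% at 5 to 9 and 72.2% at 10 or more. The share that lay over 5 kb from genes went from 62.1 to 57.6, 44.7 and 16.6% across the same classes. These are shares of all member loci, so the loci that share gene exons lower them. Of the 62 gene-free loci with 10 or more exons, 37 lay that far from genes, beside 63.9% of all 2277 gene-free loci. On the X chromosome, silenced during male meiosis, lay 58 gene-free loci, or 2.55% (1.94 to 3.28%). Loci with a RefSeq model had 4.24% there (3.98 to 4.51%), and single-exon unannotated loci 2.16%. Per 100 loci with a RefSeq model, gene-free loci numbered 6.25 on X, and on the autosomes between 6.75 on chromosome 2 and 16.8 on chromosome 14. On Y the number was 33.3, from only 4 gene-free loci (0.176%) and 12 loci with a RefSeq model (0.055%). A link to silencing was not tested.

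Head-to-head pairs were sought next, with the start of a gene on the other strand 1 to 500 bp upstream of a member start. They were found for 125 of 2640 member loci, or 4.73% (3.96 to 5.62%), against 7.69% of all 33254 loci of the table and 8.34% of RefSeq coding loci. Single-exon unannotated loci had 5.42%. The share among members was thus below the background. When any model could be the partner, the share of members was 8.56%, against 10.3% of all loci. Where a pair existed, the starts were close, with quartiles of 64 and 154 bp, a range of 6 to 476 bp and 112 of 125 (89.6%) within 250 bp. Within that distance lay 80.6% of the pairs of single-exon loci and 74.3% of those of RefSeq coding loci. In 85 of the 108 gene-free pairs the partner was a coding gene.

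**Figure D5:**
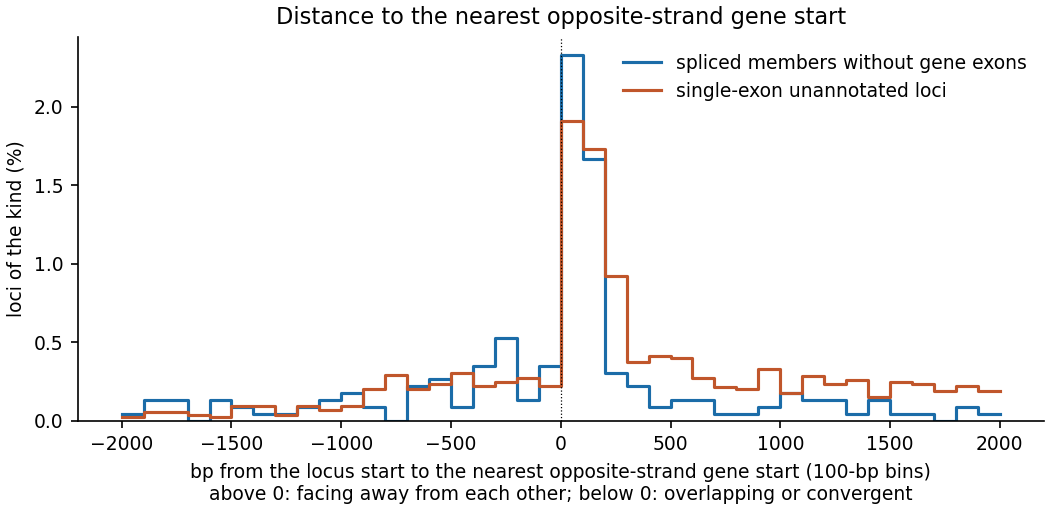
Distance in bp from a locus start to the nearest gene start on the other strand within 2000 bp (horizontal axis, 100-bp bins; above 0 the transcripts face away from each other) and share of all loci of the kind (%, vertical axis). Both kinds peak just above 0, where 2.33% of gene-free members and 1.91% of single-exon loci lie in the first 100-bp bin.

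Of 156 symbols in 8 lists of genes for germ cells, testis somatic cells and other tissues, 155 were in the table and 1 was in such a pair, beside 0.545% of all gene symbols. That was Tex12, 124 bp from CUFF.26797.2 (chr9:50369543-50389942, plus strand) by its nearest model. It shares exons with a known gene, and 5 of its 6 introns are introns of Il18, a cytokine gene. The following members, named for having the most exons among the others that faced a coding gene within 250 bp, also shared exons with known genes. Gene-free members that faced a coding gene so closely had fewer exons, such as CUFF.9903.1 with 9, which faced Anks3. CUFF.10360.1, from Golgb1, which encodes giantin of the Golgi, lay 154 bp from Eaf2, and CUFF.416.1, from Carf, lay 103 bp from Wdr12. CUFF.11734.1, from the kinesin light chain gene Klc4, was in a locus 169 bp from Mrpl2, and CUFF.6177.1, from the cyclin gene Ccnk, lay 231 bp from Setd3.

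Members antisense to exons were more frequent than head-to-head pairs. On the other strand of gene exons lay 245 member loci, or 9.28% (8.20 to 10.5%), against 9.19% of all loci, so the members stood at the background. Among the 211 that were gene-free, 80 lay inside the gene, 77 ran over its start, 44 over its end and 10 over all of it. The overlap was 304 bp at the median (167.5 and 645). The largest overlaps, picked for their size, were those of CUFF.15064.1 with Gm1337 (3584 bp), CUFF.23548.1 with Gm5592 (3033 bp) and CUFF.24434.1 with Maz, a zinc finger factor (2300 bp). Genes and their antisense partners can be told apart here only as far as the strand in the table is right, and no source used here says how strand was kept.

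Of the listed genes, 4 had an antisense member. CUFF.1269.1 (chr1:158231958-158234446, plus strand), with 3 exons, overlapped 747 bp of Tdrd5, a Tudor protein gene of the piRNA pathway. CUFF.13848.1 (chr19:58305544-58310953, plus strand), with 2 exons, overlapped 804 bp of Gfra1, the GDNF receptor of undifferentiated spermatogonia. CUFF.12364.1 on chromosome 18 overlapped 79 bp of Taf4b, a germ cell TFIID subunit gene. CUFF.20360.1 (chr5:112644504-112648334, plus strand) lay with all its 1423 nt inside exons of Miat, itself a long noncoding RNA. Over all 23135 gene symbols of the table, 255 had an antisense member, or 1.1%, beside these 4 of 155. By list, an antisense member was found for 1 of 21 piRNA pathway genes, 1 of 19 germline transcription factors, 1 of 13 spermatogonial genes and 1 of 15 long noncoding RNAs. It was found for 0 of 32 meiotic prophase genes, 0 of 26 spermatid genes, 0 of 19 Sertoli and Leydig cell genes and 0 of 10 genes of other tissues. Same-strand exons were shared with Fkbp6, a chaperone gene of the piRNA pathway, and with the meiotic genes Rad21l, a cohesin subunit, and Mei1, needed for meiotic DNA breaks. They were also shared with Gapdhs and with Ttn, which makes 5 of 155 listed genes, beside 1.58% of all gene symbols. CUFF.20822.2 had 8 of 9 introns from Fkbp6, CUFF.15500.2 had 12 of 13 from Rad21l, and CUFF.9400.1 took its 24 from Mei1. On the strand opposite piRNA-named models, 5 of the 3369 members were antisense to their exons. Head to head with a piRNA-named start lay 1 of the 2640 member loci. These counts were not set beside other kinds of models.

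Alternative splicing could be read in 570 loci with 2 to 6 members. Of these loci, 253 (44.4%, 40.3 to 48.6%) had starts over 50 nt apart and 240 (42.1%, 38.01 to 46.3%) had ends over 50 nt apart. With a limit of 10 nt the starts gave 269 loci and the ends again 240. The commonest difference was an alternative first exon, in 141 loci (24.7%), followed by a retained intron in 116 (20.4%), a cassette exon in 109 (19.1%) and an alternative last exon in 97 (17.0%). In the 453 gene-free loci the counts were 96, 95, 79 and 81. There the order of starts and ends was reversed, with starts over 50 nt apart in 178 (39.3%) and ends in 186 (41.1%). These shares were not set beside those of other kinds of loci, so they are not shown to be particular to members. The locus with the most models, around CUFF.5890.2 (chr12:79295227-79314084, plus strand), had 6 models of 7 to 11 exons with 4 starts and 4 ends, and 3 of its 15 introns were in every model. The loci of CUFF.128.5 on chromosome 1 and CUFF.15889.2 on chromosome 2 had 5 models each and no intron in all of them. The locus of CUFF.284.3 on chromosome 1, antisense to Lman2l, had 4 models of 14 to 27 exons with 33 introns and none in all. That of CUFF.2382.2 on chromosome 10 also had 4 models, shared exons with Dip2a, and had 4 of 40 introns in every model.

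Splice sites that moved within an exon did so by different steps at the 2 ends of the intron. Among 106 alternative acceptor pairs, 27 were exactly 3 nt apart, or 25.5% (17.5 to 34.9%), which was the commonest step. Acceptors 3 nt apart are known as tandem NAG sites, and each choice adds or drops 3 nt of RNA. Among 92 alternative donor pairs none was 3 nt apart (exact 95% upper limit 3.93%), and the commonest steps were 4 and 5 nt, with 4 pairs each. Models with a gene symbol had the same leading acceptor step, 556 of 1593 pairs or 34.9% (32.6 to 37.3%), and at donors 2.16% of 1294 pairs were 3 nt apart, 2.94% were 4 nt apart, and 6 nt was the commonest step with 40 pairs. The median shift of members was 31 nt at acceptors and 90 nt at donors.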

How the data were processed

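The deposited table has 1 transcript model per line, and its values are positions, exon numbers and exon lengths in bp, not counts or levels. Per the submitters' processing notes, the authors used TopHat2 2.0.4 and the mm9 build. No source used here gives the assembly, the filters, the meaning of the codes or the library depths. A model's presence is therefore no measure of expression, and models may be incomplete.

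Models were read and compared with Python 3.11.15, pandas 2.3.3 and numpy 2.4.6. Exact Clopper-Pearson 95% intervals came from scipy 1.17.1, and plots from matplotlib 3.10.9. Genes were models with a symbol. Starts or ends within 50 nt counted as 1 where they were counted per locus. The code was tested on 25 constructed cases. No test between groups was run, because each group had 1 library and the table gives no value per library. The members and gene lists were chosen with earlier results of these data known. Named were the 5 members with most exons, spliced length and span, the 5 loci with most models, listed genes that paired with a member, and the 5 other facing members with most exons. A few of these are not reported here. Of 23135 symbols, 98.7% matched GRCm38.p6, used for names, neighbours and promoters. Sequence at member starts was not analysed here, since no mm9 genome was used.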

Additional observations from a re-analysis of the deposited data

How the results depend on the processing

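With 1 model per locus, the median exon number fell from 3 to 2, the share of members with 2 exons went from 47.6 to 54.4% and the median span from 6796 to 6234 bp. Without the members that share exons with a gene, these were 2 exons, 54.9% and 5664 bp, and the median spliced length went from 1246 to 1098.5 nt. Of all 2640 member loci, 55.1% had no gene within 5 kb, against 61.3% with no gene within 1 kb and 49.5% within 10 kb. The other 14 alternatives stayed within the reported intervals or within 1.5 times the count. They included partner distances of 250 and 1000 bp, outermost starts, antisense overlaps of 50 bp or more and the removal of introns under 70 bp. No paired analysis was possible because no result comes from a test. Depth is unknown, so whether unannotated loci are missed at low levels cannot be read from the table.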
